A study of Homo sapiens with 6 samples.

Results

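The ALG genes encode the enzymes that build the precursor of N-glycans, and 8 of them were followed here: DPAGT1, ALG13, ALG14, ALG1, ALG11, ALG3, ALG5 and ALG8. A probe set belonged to a gene when the RefSeq accession in its identifier, without the version, led to that gene's symbol. Each of the 8 genes had exactly 1 probe set, so the genes account for 8 of the 1259 probe sets on the array and for 8 of the 927 genes that could be named. The cells were HCT116, a human colorectal cancer line with unstable microsatellites. By the sample titles they carried wild-type ACVR2, an activin receptor, under doxycycline control, while the source label also names TGFBR2 and AIM2 beside ACVR2. There were 3 arrays of cells given doxycycline and activin A and 3 arrays of cells given activin A alone. The HCT116 background, the inducible construct and activin A were thus common to both groups. No array had doxycycline without the construct, and the labels do not say whether the replicates were separate cultures or how many clones were used. Each p-value below thus rests on the spread of these samples alone, and that spread could be a technical one.

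N-glycans start as a sugar tree built on dolichol, a long lipid in the membrane of the endoplasmic reticulum. Enzymes on the cytosolic face add N-acetylglucosamine (GlcNAc) and mannose from nucleotide sugars. The lipid-linked tree is then turned to the lumenal face, where further mannose and glucose come from dolichol-phosphate sugars, and oligosaccharyltransferase moves the finished tree onto asparagines of new proteins. Inherited loss of function in these genes causes congenital disorders of glycosylation. In the order of assembly, DPAGT1 attaches the first sugar phosphate, ALG13 and ALG14 together add the second GlcNAc, ALG1 adds the first mannose and ALG11 adds the last mannoses of the cytosolic side. ALG3 adds the first mannose in the lumen, ALG5 makes dolichol-phosphate glucose, and ALG8 uses that donor to add the second glucose.

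The values are log2 expression made by the authors with RMA, a method that removes background, gives all arrays one common distribution and combines the probes of a set. A difference of log2 values is the log2 of a fold change. Levels of different probe sets are not comparable, so each difference sets a gene only against itself. Replicate 3 without doxycycline stood apart from the other arrays, with correlations of 0.982 to 0.991 to them against 0.995 to 0.999 among the other 5, and differences are therefore given with and without it. The titles name ACVR2, which was taken here as the gene ACVR2A, read by its probe set with the highest mean. That probe set averaged 8.08 with doxycycline and 8.34 without, a difference of -0.26 (SE 0.16; limma, adjusted p = 0.710). Without replicate 3 of the cells lacking doxycycline the difference was -0.08 (SE 0.07; limma, adjusted p = 0.812). A higher level of the receptor transcript was thus not seen on the arrays labelled with doxycycline. Whether the probes lie in the introduced sequence is not known, so "with doxycycline" names a label throughout. Only 2 of 14 colon epithelium markers were measured, LGALS4 and MUC2, and the array table has no detection calls, so the cell label could not be checked.

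The promoter stretches of 4 genes are shown here because these genes carry the main contrasts of the results: the partner genes ALG13 and ALG14, ALG11 with the largest difference, and DPAGT1 with the only negative one. Each stretch runs from 200 bases before the RefSeq gene start to 30 bases from it, 5′ to 3′ on the strand of the gene, in RefSeq sequence of the GRCh38.p14 assembly. Capitals mark matches on either strand to any of 5 motifs: the CCAAT box (CCAAT), an ETS-type core (CCGGAAG), a YY1-type motif (AAGATGGC), the E-box (CACGTG) and the SMAD palindrome (GTCTAGAC). No 2 matches overlapped. The DPAGT1 stretch lies at chr11:119101824-119102053 on the minus strand, ALG13 at chrX:111680970-111681199 on the plus strand, ALG14 at chr1:95072922-95073151 on the minus strand and ALG11 at chr13:52012198-52012427 on the plus strand.
DPAGT1: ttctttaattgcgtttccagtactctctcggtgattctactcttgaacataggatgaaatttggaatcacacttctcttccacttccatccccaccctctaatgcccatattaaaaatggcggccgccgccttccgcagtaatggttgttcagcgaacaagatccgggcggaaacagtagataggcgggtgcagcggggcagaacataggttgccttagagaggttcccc
ALG13: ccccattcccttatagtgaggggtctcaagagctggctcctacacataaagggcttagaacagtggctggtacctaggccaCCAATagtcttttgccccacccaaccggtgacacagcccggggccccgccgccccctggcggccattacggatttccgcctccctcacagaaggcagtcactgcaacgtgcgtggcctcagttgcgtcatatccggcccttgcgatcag
ALG14: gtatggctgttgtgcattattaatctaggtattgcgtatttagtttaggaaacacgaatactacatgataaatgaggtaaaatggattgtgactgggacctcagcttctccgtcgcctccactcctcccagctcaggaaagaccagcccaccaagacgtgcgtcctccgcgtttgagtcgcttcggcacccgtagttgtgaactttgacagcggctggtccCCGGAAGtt
ALG11: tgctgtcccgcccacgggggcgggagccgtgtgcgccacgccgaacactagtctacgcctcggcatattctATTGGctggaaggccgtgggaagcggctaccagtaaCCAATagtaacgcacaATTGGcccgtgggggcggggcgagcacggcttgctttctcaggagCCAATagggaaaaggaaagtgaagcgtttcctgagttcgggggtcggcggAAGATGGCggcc

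None of the 5 motifs occurred in its exact letters in the DPAGT1 stretch. Near matches were not counted in any stretch, such as aaaatggc in that of DPAGT1, which is close to the YY1-type motif AAGATGGC. ALG13 had 1 CCAAT box beginning at -119 from the gene start, and ALG14 had 1 ETS-type core beginning at 22. ALG11 had 4 CCAAT boxes, beginning at -129, -93, -77 and -32, and a YY1-type motif beginning at 19. Among 35116 promoter windows of the same 230 bases, 29.8% held a CCAAT box and 0.624% held 4 or more. Over the 8 genes the CCAAT box was found in 3 (ALG13, ALG11 and ALG3), the ETS-type core in 2 (ALG14 and ALG8), the YY1-type motif in 2 (ALG1 and ALG11) and the E-box in 2 (ALG1 and ALG3). The shares among all windows were 9.15% for the ETS-type core, 2.18% for the YY1-type motif and 6.11% for the E-box. The SMAD palindrome occurred in 0 of the 8 and in 0.122% of all windows. Such a match is a description of letters and not a measured binding site.

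The design asks whether glycosylation genes differ between cells with and without doxycycline, which was meant to switch on the receptor, in the presence of activin A. Of the 8 genes, 7 had higher values with doxycycline and 1, DPAGT1, had a lower value, where 45.4% of all probe sets had higher values. The differences ran from -0.12 to 0.60 with a median of 0.23, against a median of -0.0081 over all probe sets. None passed the threshold: 0 of 8 genes, and 0 of 1259 probe sets (0%), had an adjusted p under 0.05 (limma, Benjamini-Hochberg over all probe sets), while 98 probe sets had an unadjusted p under 0.05. At an unadjusted p under 0.05 there was 1 higher gene, ALG13, and 0 lower, against 3.26% and 4.53% of all probe sets. Without replicate 3 of the cells lacking doxycycline the same 7 genes were higher, against 38.2% of probe sets, with a median of 0.11, and again 0 passed (limma, adjusted p under 0.05). Over all 12 alternative settings the adjusted p of the 8 genes ran from 0.112 to 0.903 (limma). The RNA came from whole cultures, so a lower level in every cell and fewer cells expressing a gene cannot be told apart.

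**Figure D1:**
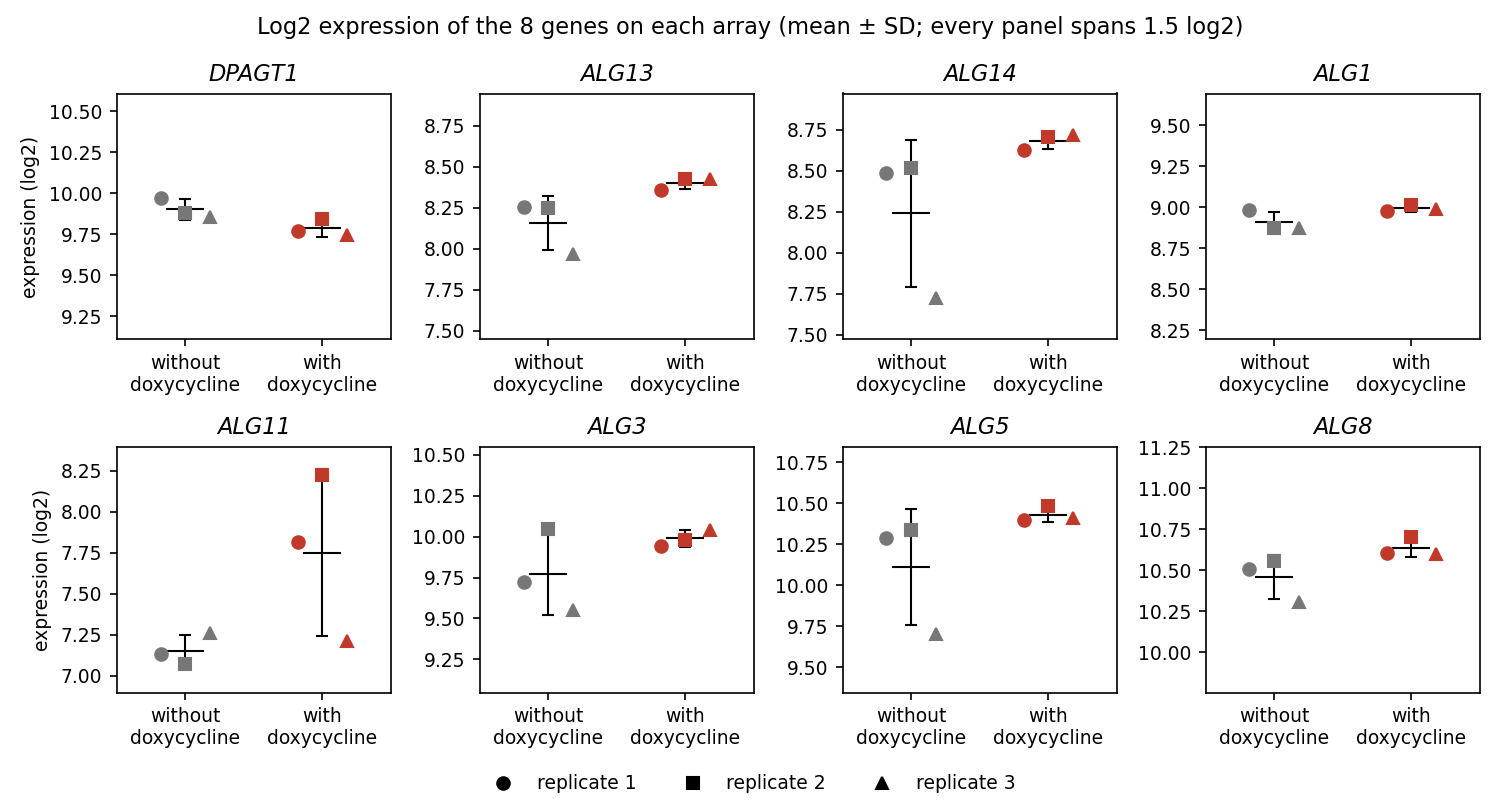
Log2 expression of the 8 genes on each array without (grey) and with (red) doxycycline; symbols give the replicate, and bars the mean and SD of 3 arrays. Replicate 3 without doxycycline (grey triangle) lies lowest of its group for DPAGT1, ALG13, ALG14, ALG3, ALG5 and ALG8, and ALG11 spans 7.21 to 8.22 on the arrays with doxycycline.

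DPAGT1, which commits dolichol to the pathway and is the target of tunicamycin, was the only gene of the 8 with lower values in the cells given doxycycline. It read 9.77, 9.85 and 9.74 with doxycycline and 9.98, 9.88 and 9.86 without, for replicates 1, 2 and 3. The groups did not overlap, but the gap between the lowest array without and the highest with doxycycline was 0.0099. The difference was -0.12 (SE 0.05; 95% interval -0.24 to 0.0080; limma, adjusted p = 0.669), a fold of 1.08. Without replicate 3 of the cells lacking doxycycline it stood at -0.14 (SE 0.05; limma, adjusted p = 0.464). Its probe set has the suffix s_at, which the array maker gives to probes shared by several transcripts, and the gene's span overlaps that of H2AX, and which transcripts its probes match is not known.

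ALG13 and ALG14 form one enzyme, in which ALG13 holds the catalytic part and ALG14 anchors it to the membrane. ALG13 read 8.36, 8.42 and 8.42 with doxycycline and 8.26, 8.25 and 7.97 without. Every array with doxycycline was above every array without, by at least 0.10, and replicate 3 without doxycycline was well below its group. The difference was 0.24 (SE 0.09; 95% interval 0.02 to 0.46; limma, adjusted p = 0.570), and 0.15 (SE 0.04; limma, adjusted p = 0.284) without that array. ALG14 read 8.62, 8.70 and 8.72 with doxycycline and 8.48, 8.52 and 7.72 without. Here too the groups were apart, by 0.11, and replicate 3 without doxycycline was 0.78 below the mean of replicates 1 and 2. ALG14 differed by 0.44 (SE 0.22; 95% interval -0.11 to 0.99; limma, adjusted p = 0.682), and by 0.18 (SE 0.04; 95% interval 0.07 to 0.29; limma, adjusted p = 0.251) without it. Leaving the array out thus moved ALG14 2.43 times and ALG13 1.64 times, and brought their differences close to each other while both kept their sign.

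ALG1, the mannosyltransferase of the next step, read 8.97, 9.01 and 8.99 with doxycycline and 8.98, 8.87 and 8.87 without. The groups overlapped because replicate 1 without doxycycline lay among the arrays with it. The difference was 0.08 (SE 0.04; limma, adjusted p = 0.691), and 0.07 without replicate 3 of the cells lacking doxycycline.

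ALG11 had the largest difference of the 8 and by far the widest spread among cells given doxycycline. It read 7.81, 8.22 and 7.21 with doxycycline and 7.13, 7.07 and 7.26 without. Replicates 1 and 2 with doxycycline were above all other arrays, whereas replicate 3 lay inside the range of the arrays without it. The means and SDs of 3 arrays were 7.75 ± 0.51 in the cells given doxycycline and 7.15 ± 0.10 in the others, a difference of 0.60 (SE 0.25; 95% interval -0.04 to 1.23; limma, adjusted p = 0.669). The range of 1.01 with doxycycline ranked 1 of 1259 probe sets. The difference ranked 6 of 1259 from the top, and 1 of 1259 without replicate 3 of the cells lacking doxycycline, when it was 0.65 (SE 0.29; limma, adjusted p = 0.574). It was 0.36 without replicate 2 given doxycycline and 0.87 without replicate 3 given doxycycline (limma, adjusted p = 0.873 and 0.516). The probe set again carries the suffix s_at, and the span of ALG11 (chr13:52012398-52033600) overlaps that of UTP14C, a gene for ribosomal RNA processing, at chr13:52024691-52033600 in GRCh38.p14. Whether the probes lie in the shared stretch is not known, so ALG11 and UTP14C cannot be told apart here.

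**Figure D2:**
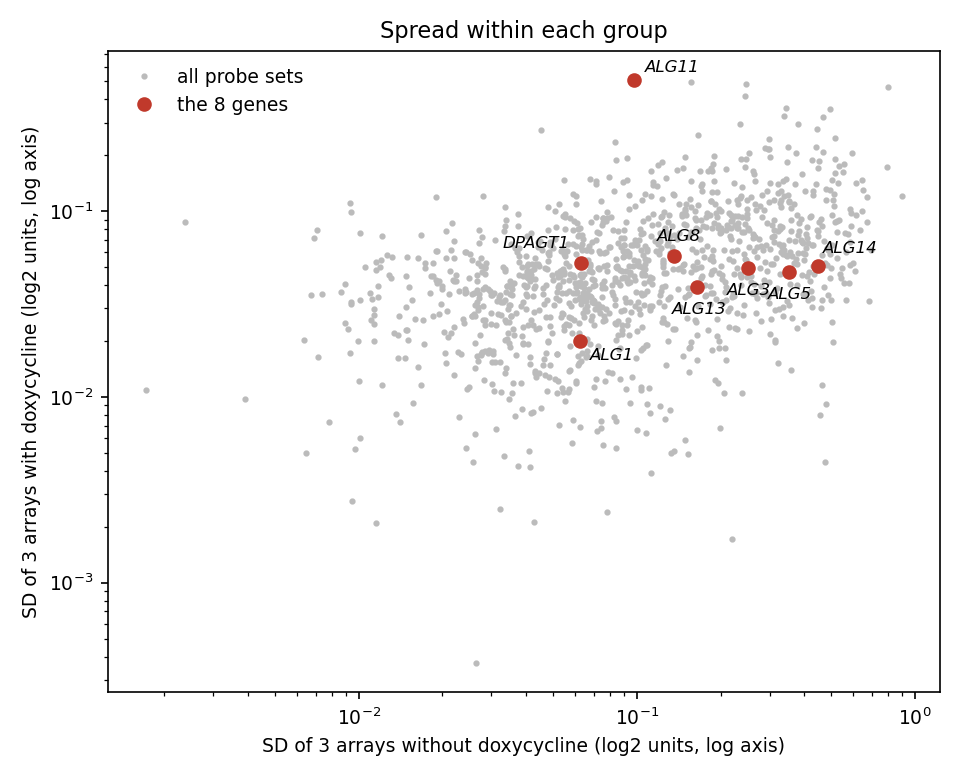
SD of the 3 arrays with doxycycline (vertical) against that of the 3 arrays without (horizontal), in log2 units on log axes, for all probe sets (grey) and the 8 genes (red). ALG11 lies at the top with an SD of 0.51, while the other 7 genes lie between 0.02 and 0.06 on the vertical axis and up to 0.45 on the horizontal one.

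ALG3, which adds the first mannose after the tree has turned to the lumen, read 9.94, 9.98 and 10.04 with doxycycline and 9.72, 10.04 and 9.55 without. The groups overlapped: replicate 2 without doxycycline was as high as the highest array with it. The difference of 0.22 (SE 0.13; limma, adjusted p = 0.692) became 0.10 without replicate 3 and 0.35 without replicate 2 of the cells lacking doxycycline (limma, adjusted p = 0.819 and 0.112). The arrays with doxycycline spread over 0.10 and those without over 0.49, so its size depends on which of the latter are used.

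ALG5 and ALG8 belong to the glucose branch, ALG5 as the maker of the glucose donor. ALG5 read 10.40, 10.48 and 10.41 with doxycycline and 10.29, 10.34 and 9.70 without. The groups were apart by 0.06, with replicate 3 without doxycycline 0.61 below the mean of its 2 companions. The difference was 0.32 (SE 0.18; 95% interval -0.12 to 0.76; limma, adjusted p = 0.692) and moved 2.73 times, to 0.12 (SE 0.04; limma, adjusted p = 0.464), without it. ALG8 read 10.61, 10.70 and 10.60 with doxycycline and 10.51, 10.56 and 10.30 without. It was likewise apart, by 0.04. ALG8 differed by 0.18 (SE 0.08; limma, adjusted p = 0.669), and by 0.10 (SE 0.05; limma, adjusted p = 0.594) without replicate 3.

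**Figure D3:**
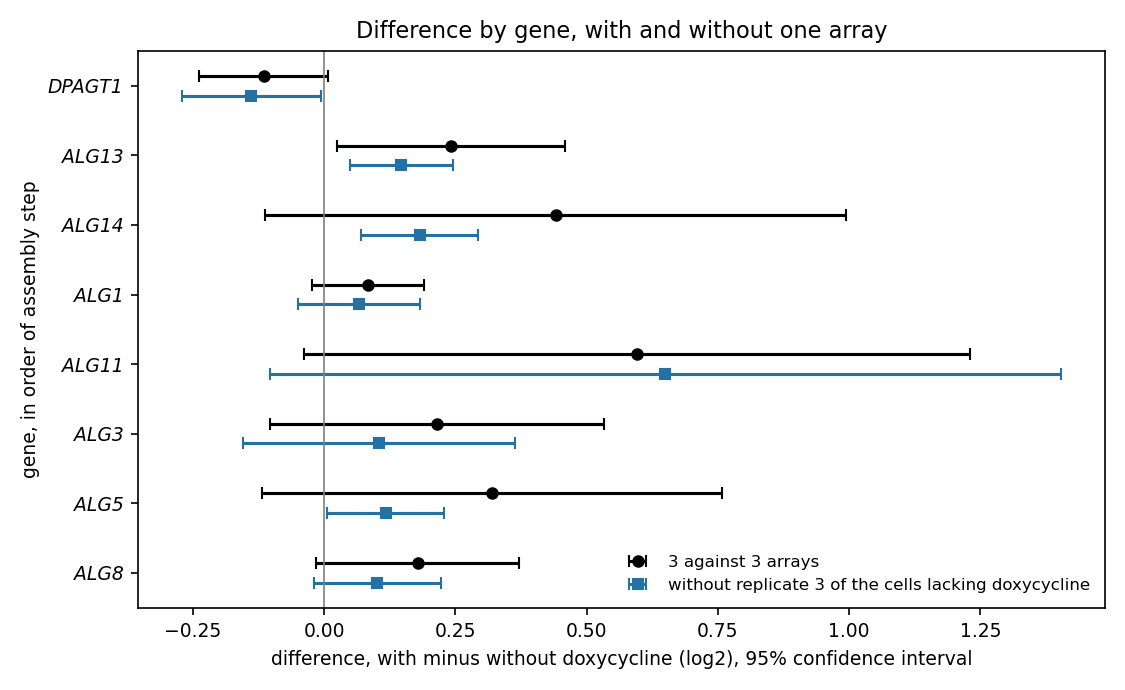
Difference of each gene, with minus without doxycycline, in log2 units with its 95% interval, from all 6 arrays (black circles) and without replicate 3 of the cells lacking doxycycline (blue squares). The intervals of ALG14 and ALG5 narrow and their differences shrink to 0.18 and 0.12, while ALG11 keeps a wide interval around 0.65.

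Over the 8 genes the groups were apart with higher values in 4 (ALG13, ALG14, ALG5 and ALG8) and with lower values in 1 (DPAGT1), where 7.55% and 8.26% of all probe sets were so. For each of these 5 the exact two-sided permutation p was 0.1, the smallest that 3 arrays against 3 can give. It was 0.2 for ALG1 and ALG11 and 0.4 for ALG3. Without replicate 3 of the cells lacking doxycycline ALG11 joined the 4 that were apart with higher values, against 8.98% of probe sets, and DPAGT1 was still apart with lower values, against 16%. At an unadjusted p under 0.05 (limma) there were then 3 higher genes (ALG13, ALG14 and ALG5) and 1 lower (DPAGT1), against 4.29% and 5.64% of probe sets. The gaps between groups were 0.11 or less in all 5 genes with 3 arrays against 3.

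Replicate 3 without doxycycline was below the mean of replicates 1 and 2 in 7 of the 8 genes, the exception being ALG11 at 0.16 above. The median departure of the 8 genes was -0.26, against -0.03 over all probe sets, where 745 of 1259 were below. ALG14 at -0.78 ranked 24 and ALG5 at -0.61 ranked 51 from the lowest of 1259 probe sets, and ALG3 stood at -0.33, ALG13 at -0.28 and ALG8 at -0.23. DPAGT1 and ALG1 were at -0.07 and -0.05, inside the middle range of all probe sets from -0.14 to 0.06. Across the 927 named genes the departure of this array had a Spearman correlation of 0.409 with the log10 of the gene's span, genes not being independent. Genes with longer spans thus tended to have higher departures. Among the 8 the spans were 98547 bases for ALG14, 79480 for ALG13, 49630 for ALG5 and 38681 for ALG8. They were 21203 for ALG11, 15537 for ALG1, 7980 for DPAGT1 and 7225 for ALG3. ALG14, with the longest span of the 8, had the lowest departure of them. How far the 8 genes follow the trend was not tested.

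**Figure D4:**
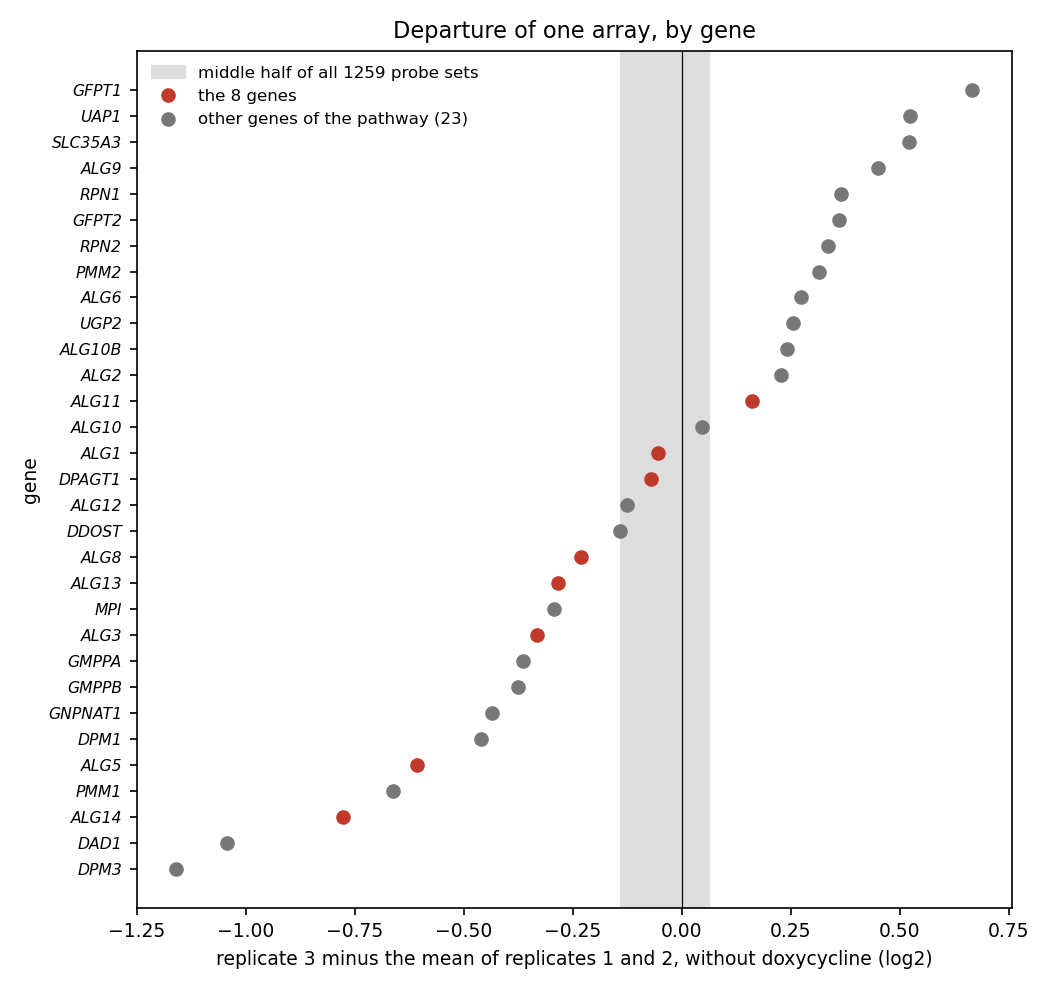
Replicate 3 minus the mean of replicates 1 and 2 without doxycycline, in log2 units, for the 8 genes (red) and the 23 other measured genes of the pathway (grey), with the middle range of all probe sets shaded. DPM3, DAD1, ALG14, PMM1 and ALG5 lie furthest below, and GFPT1, UAP1 and SLC35A3 furthest above.

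Among the other ALG genes lower values were more frequent than higher ones. The same held over all probe sets, where 688 of 1259 were lower, and 778 without replicate 3 of the cells lacking doxycycline. The contrast with the 8 genes was not tested. Of 6 measured, ALG2, ALG6, ALG9, ALG10, ALG10B and ALG12, 2 had higher values with doxycycline and 4 lower, with a median of -0.11 that was -0.03 without replicate 3 of the cells lacking doxycycline, and 0 passed in either direction. ALG9, a lumenal mannosyltransferase, was at -0.21 (SE 0.16), ALG10B, which adds the last glucose, at -0.15 (SE 0.09), ALG6, which adds the first glucose, at -0.12 (SE 0.10), ALG2, which acts between ALG1 and ALG11, at -0.11 (SE 0.12), ALG10 at 0.02 and ALG12 at 0.05. Without that array ALG9 was at -0.06, ALG10B at -0.07, ALG6 at -0.02, ALG2 at -0.04, ALG10 at 0.03 and ALG12 at 0.01. Leaving out replicate 2 of the cells lacking doxycycline instead moved most of them further from 0. ALG9 was then at -0.38, ALG10B at -0.24, ALG6 at -0.23, ALG2 at -0.25, ALG10 at 0.02 and ALG12 at 0.13. Their adjusted p ran from 0.101 (ALG2) to 0.844 (ALG10) in that setting (limma). The size of these differences thus depends on which array is left out. In 5 of these 6 replicate 3 without doxycycline was above the mean of replicates 1 and 2, by 0.45 in ALG9. In ALG9, ALG2, ALG6 and ALG10B that mean held a low replicate 2. Replicates 1, 2 and 3 without doxycycline read 8.49, 8.10 and 8.75 for ALG9 and 7.77, 7.37 and 7.80 for ALG2. They read 9.52, 9.25 and 9.66 for ALG6 and 7.75, 7.55 and 7.89 for ALG10B. In ALG10 and ALG12 replicate 2 was not the lowest. With these genes added, 9 of 14 ALG genes had higher values, against 45.4% of all probe sets, and 5 had lower ones. The median of the 14 stood at 0.07, or 0.05 without replicate 3 of the cells lacking doxycycline. The 8 genes are thus a selection of the 14 that were measured, made with earlier results known.

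Other genes of the pathway and of nucleotide sugar supply and transport were counted from a list of 40. Of these, 23 were measured, the 6 ALG genes above included. Of the 23, 14 had higher values, against 45.4% of all probe sets, and 9 had lower ones. The median was 0.05, and 0 passed in either direction. Without replicate 3 of the cells lacking doxycycline 16 had higher values, against 38.2% of all probe sets, and 7 had lower ones. The median was then 0.03, and again 0 passed (limma). The dolichol-phosphate mannose synthase genes DPM1 and DPM3, whose product is the donor for ALG3, were at 0.23 (SE 0.14) and 0.57 (SE 0.33), and at 0.07 and 0.18 without replicate 3 of the cells lacking doxycycline. That array read 9.14 for DPM3, where the other 5 read 10.27 to 10.58. Of oligosaccharyltransferase subunits, DAD1 was at 0.49 (SE 0.30), DDOST at 0.09, RPN1 at -0.06 and RPN2 at -0.0018, and without that array all 4 lay between 0.05 and 0.14. In nucleotide sugar supply and transport 8 of 11 were higher, against 45.4% of all probe sets, and 3 lower. The genes of GDP-mannose supply PMM1, GMPPA, GMPPB, MPI and PMM2 were at 0.33, 0.17, 0.15, 0.09 and -0.10, and without the array standing apart at 0.11, 0.05, 0.02, -0.0061 and 0.0016. Those of UDP-GlcNAc supply, GNPNAT1, UAP1, GFPT2 and GFPT1, were at 0.16, 0.0048, -0.13 and -0.27, the transporter gene SLC35A3 at 0.13, and UGP2, for UDP-glucose, at 0.10. Without that array GNPNAT1, UAP1, GFPT2 and GFPT1 were at 0.02, 0.18, -0.01 and -0.05, SLC35A3 at 0.30 and UGP2 at 0.18. Of the 11 genes of nucleotide sugar supply and transport, 7 were then within 0.1 of 0, against 955 of all 1259 probe sets.

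Genes whose values across the 6 arrays were most like each of the 8 are named by Pearson correlation, as a description. For ALG14 these were SLC35B1 (0.997), PSME1 (0.997) and ATP6V0E1 (0.997), for ALG5 SLC35E1 (0.998), IFITM1 (0.998) and CKS1B (0.995), and for ALG13 PIGC, C1D and NAGK (0.993 each). ALG8 was nearest to IFNAR2 (0.988), SRP14 (0.984) and NAGK (0.977), ALG3 to CAPNS1 (0.993), TAGLN2 (0.987) and B4GALNT2 (0.980), and ALG1 to HPSE (0.974), CCR6 (0.971) and GPC6 (0.966). DPAGT1 was nearest to TGFB2 (0.973), IL18RAP (0.941) and HGF (0.917), and ALG11 to LEPROT (0.982), GFRA3 (0.943) and BMP10 (0.912). For ALG14, ALG5, ALG13, ALG8 and ALG3 these correlations include the low values of replicate 3 without doxycycline. Over the other 5 arrays the 24 correlations ran from 0.900 (ALG8 with NAGK) to 0.989 (ALG14 with SLC35B1). These 5 arrays are among the 6 that picked the pairs out of 927 named genes, so this range is no separate check. LEPROT read 9.12, 9.41 and 8.44 with doxycycline and 8.33, 8.45 and 8.65 without, so it had the order of ALG11 among the arrays with doxycycline, and its range of 0.97 there was the next largest after that of ALG11.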

How the data were processed

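Total RNA of 6 HCT116 samples was extracted with Trizol and made into biotin-labelled cRNA, per the labels' protocols. The deposited values are log2 expression, for which the submitters' processing notes name RMA without a version; for the probe sets a genome build was not given in the sources used here. Of 1259 probe sets, 1043 had 1 gene symbol through RefSeq accessions of GRCh38.p14 and 216 had none. Groups were taken from the sample titles. All probe sets were fitted with limma 3.58.1 in R 4.3.3 (group means, default eBayes, two-sided) with Benjamini-Hochberg adjustment over 1259 probe sets, and the threshold was 0.05. No filter or block entered this fit. The fit was also run on simulated data. These had the same spread in both groups and no array standing apart, unlike the data here. The alternatives were leaving out each array, a replicate block, array weights, median centring, repeated quantile normalization, leaving out probe sets with a mean under 6.88, and an intensity trend with a robust prior. Each gene of the wider list was represented by its probe set with the highest mean. The genes named were the 8, the list of 40 and, for each of the 8, the 3 genes most like it. The members and lists were chosen with earlier results of these data known. The number of arrays limits the precision.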

Additional observations from a re-analysis of the deposited data

How the results depend on the processing

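All 8 genes kept their direction under the 12 alternatives, and 0 of them passed the threshold under any. For some alternatives the direction could not change. The replicate block, leaving out probe sets with a mean under 6.88 and the trend with a robust prior alter only the test. Median centring moves every difference by the same amount, so it could turn only a small one. Leaving out 1 array gave medians of the 8 genes from 0.11 to 0.32, 7 higher genes each time and 0 probe sets past the threshold. Without replicate 2 lacking doxycycline 258 probe sets had an unadjusted p under 0.05 (limma), against 98 with all arrays. For the 23 other pathway genes leaving out 1 array gave medians from -0.0250 (without replicate 2 lacking doxycycline) to 0.0817. With array weights 1 probe set passed, that of GAL3ST4, which is no gene of this pathway. The labels do not say whether same-numbered samples were paired. Same-numbered arrays had correlations of their deviations of -0.15, -0.04 and -0.16. Those of differently numbered arrays ran from -0.17 to 0.21, so these values cannot settle whether there was pairing. With the replicate block 0 probe sets passed and 81 had an unadjusted p under 0.05 instead of 98 (limma). The median of the 8 genes stayed at 0.23, as the block cannot move it with equal groups. Among the other genes 15 values turned. Leaving out 1 array gave ranges of -0.176 to 0.0639 for RPN1, -0.0870 to 0.110 for RPN2, -0.0061 to 0.181 for MPI, -0.171 to 0.0016 for PMM2, -0.199 to 0.180 for UAP1, -0.0254 to 0.184 for UGP2 and -0.0250 to 0.301 for SLC35A3. With array weights RPN2, PMM2 and UAP1 were at 0.0581, 0.0097 and -0.0328. RPN2 was at 0.0181 after median centring, and RPN1 and UAP1 were at 0.0236 and -0.0139 after repeated quantile normalization. The cause was not tested.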
